A study of Mus musculus with 15 samples.

Results

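Of 27 genes of cholesterol synthesis, its control and cholesterol export, 24 were measured in whole kidneys of mice with and without an active PRCC-TFE3 fusion, among 22180 genes tested. The members were the entries of the deposited table annotated with exactly 1 gene symbol equal to a listed gene. Acat2 and Soat1 had no such entry, and the entry that names Idi1 also names a second gene, so these 3 are not described. Scap had 2 entries, and the one with the higher mean over all arrays (8.28 against 4.11) was used.

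All mice held PRCC-TFE3 in Rosa26, silenced by a floxed stop that Cre recombinase cuts out. The fusion links PRCC to TFE3, a MiT-family transcription factor, and is found in a subtype of kidney cancer. Cre came from KSP-Cre, a transgene driven by the promoter of Cdh16, a cadherin of kidney tubule epithelium, so the fusion is switched on in tubule cells while the sample is the whole organ. The groups were PRCC-TFE3;KSP-Cre- and PRCC-TFE3;KSP-Cre+ mice, here Cre- and Cre+, with 4 and 4 animals at 4 months and 3 and 4 at 7 months, 1 array per animal. All groups carried the knock-in, and none carried KSP-Cre alone, so effects of the fusion and of the Cre transgene cannot be told apart.

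Cells make cholesterol from acetyl-CoA through mevalonate, farnesyl diphosphate, squalene and lanosterol. The transcription factor SREBP-2, held in the endoplasmic reticulum by Scap and the Insig proteins when sterols are plentiful, drives the genes of this pathway, and SREBP-1 drives mainly genes of fatty acid synthesis. Surplus cholesterol is stored as esters or exported by ABC transporters to apolipoproteins, under control of the oxysterol receptors LXR. In the kidney, tubule cells make cholesterol and take up lipoproteins, and macrophages are prominent users of the export arm.

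All values are log2 expression after RMA normalization, on arrays whose medians ran from 4.40 to 4.55. Pairs of arrays within a group correlated at 0.983 to 0.994 across genes. Gpnmb, a glycoprotein that MiT factors induce, averaged 4.46 without and 10.76 with Cre at 4 months, and 4.41 without and 12.16 with Cre at 7 months. Each library's Gpnmb value matched its Cre label. Proximal tubule markers averaged 11.09 to 11.17 in every Cre- kidney, whereas adrenal cortex markers averaged 2.99 to 3.18 in all 15 arrays. The labels give no sex. The mean of 4 Y-linked genes was 5.75 to 6.46 in 8 arrays and 2.54 to 2.83 in 7, with 2 arrays of each kind in every group but the Cre- kidneys of 7 months, which had 2 high and 1 low.

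At 4 months Sqle and Insig1 were the members that changed, and both rose. At 7 months 11 of 24 members had changed: Apoe, Abca1, Abcg1, Insig1, Insig2 and Sqle rose, and Mvd, Hmgcs1, Nsdhl, Ebp and Scap fell. Of the 15 enzymes of synthesis 1 rose and 4 fell at that age, and of the 4 genes of transfer and export 3 rose and 0 fell. After centring each array on its median, 5 members rose and 8 fell at 7 months: Dhcr7, Tm7sf2 and Stard4 then passed as lower, and Abcg1 no longer passed. Of all 22180 genes, 2337 rose and 3609 fell after that centring, against 2597 and 2394 without it, so the added falls are not particular to the members. A gene was counted as changed where its adjusted p from limma was under 0.05. At 4 months 2 of 24 members (8.33%) changed against 3.53% of all genes (2.73% rose and 0.803% fell). At 7 months 11 of 24 (45.8%) changed against 22.5% of all genes (11.7% rose and 10.8% fell). The members' mean levels lay at percentiles 54.99 to 99.37 among all genes, whose shares also take in dimmer genes. Members were also chosen with earlier results of these data known, so these shares are a description and not a test of the pathway. At an unadjusted p under 0.05 these counts were 6 members against 16.3% of genes and 13 against 32.9%. Groups that did not overlap were seen for 2 members at 4 months, both higher in Cre+, against 9.46% of all genes (6.31% higher, 3.16% lower). At 7 months 5 members lay wholly above and 7 wholly below, against 29.2% (14.0% above, 15.2% below). Of all genes called, 77.3% were higher at 4 months and 52.0% at 7 months, but after centring each array on its median 49.3% and 39.3%, and after quantile normalization 67.5% and 51.7%. The members' median log2 change was -0.02 at 4 months, where that of all genes was 0.05, and -0.12 at 7 months, where that of all genes was -0.04.

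**Figure D1:**
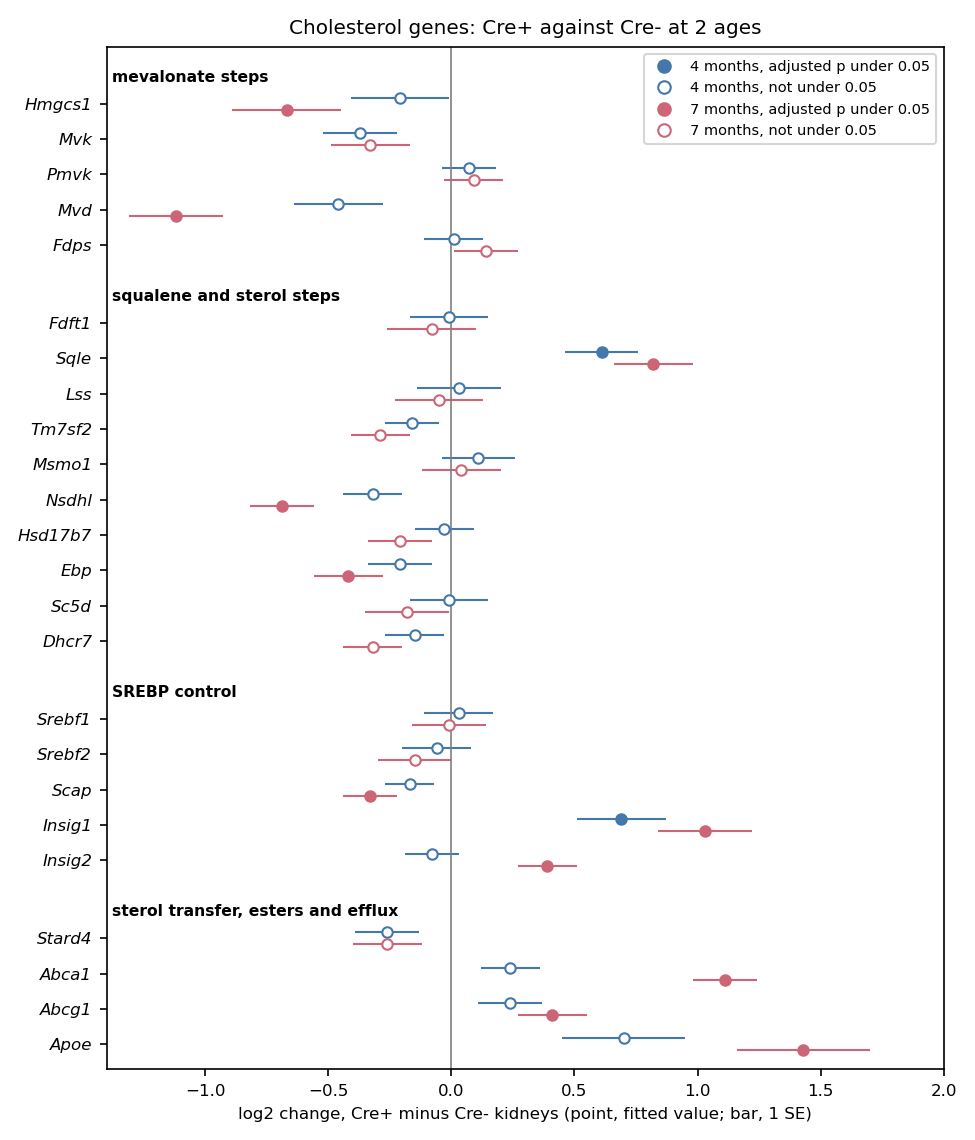
Log2 change of each of the 24 members between Cre+ and Cre- kidneys at 4 months (blue) and 7 months (red), in order of role, with bars of 1 SE; filled points passed the test. Sqle and Insig1 lie to the right of 0 at both ages, Mvd and Nsdhl lie farthest to the left at 7 months, and Abca1 and Apoe stand at 1.11 and 1.43 at 7 months.

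The first steps, from acetyl-CoA to farnesyl diphosphate, had 5 measured members, of which limma called 0 at 4 months (2 at an unadjusted p under 0.05, Mvk and Mvd), and 2 fell at 7 months. Mvd, which decarboxylates mevalonate diphosphate to the isoprenoid unit, was at 6.68, 6.11, 6.62 and 5.84 in the Cre- kidneys at 4 months and at 6.12, 5.46, 6.08 and 5.75 in the Cre+ kidneys. These ranges overlapped, and the difference of -0.46 (SE 0.18, adjusted p = 0.20) did not pass. At 7 months the Cre- kidneys were at 6.48, 6.29 and 6.52 and the Cre+ kidneys at 5.19, 5.21, 5.50 and 5.32. Every Cre+ kidney of that age was below every Cre- kidney of either age, and Mvd fell by 1.12 (SE 0.19, adjusted p = 3.3e-04), a 2.18-fold lower level.

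Hmgcs1, the cytosolic synthase of HMG-CoA, was at 11.28, 10.56, 11.25 and 10.68 in Cre- at 4 months and 10.78, 11.04, 10.45 and 10.64 in Cre+ kidneys (-0.21, SE 0.20, adjusted p = 0.67). At 7 months it was at 10.54, 11.15 and 11.31 in Cre- and 10.69, 10.37, 9.96 and 10.33 in Cre+ kidneys. It fell by 0.67 (1.59-fold lower, SE 0.22, adjusted p = 0.038), although the highest Cre+ kidney lay above the lowest Cre- kidney. Mvk, mevalonate kinase, was at -0.37 (SE 0.15, adjusted p = 0.21) at 4 months and -0.33 (SE 0.16, adjusted p = 0.16) at 7 months. At 7 months its 4 Cre+ values (5.20 to 5.40) lay below its 3 Cre- values (5.52 to 5.70) without passing the test. Pmvk, the next kinase, and Fdps, farnesyl diphosphate synthase, stood at 0.07 and 0.01 at 4 months and at 0.09 and 0.14 at 7 months (SE 0.11 to 0.13).

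From squalene to cholesterol, 10 members were measured. At 4 months 1 rose and 0 fell, and at 7 months 1 rose and 2 fell. Sqle, squalene epoxidase, a rate-limiting enzyme of the late pathway, was the gene that rose at both ages. It was at 8.36, 7.83, 8.04 and 7.82 in Cre- kidneys and 8.38, 8.93, 8.49 and 8.68 in Cre+ kidneys at 4 months, a 1.53-fold higher level (0.61, SE 0.15, adjusted p = 0.028). The groups did not overlap, by a margin of 8.36 against 8.38. At 7 months the Cre- kidneys were at 7.87, 8.05 and 8.39 and the Cre+ kidneys at 9.08, 8.89, 8.80 and 8.92, 1.76-fold higher (0.82, SE 0.16, adjusted p = 0.0011). All 8 Cre+ kidneys of both ages thus reached at least 8.38, which 1 of 7 Cre- kidneys exceeded.

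Nsdhl, a sterol dehydrogenase that helps strip methyl groups from lanosterol, moved the other way. Its Cre- kidneys were at 9.07, 8.94, 9.28 and 9.00 at 4 months and its Cre+ kidneys at 8.78, 8.53, 8.72 and 8.97 (-0.32, SE 0.12, adjusted p = 0.19). At 7 months they were at 9.19, 9.15 and 9.02 against 8.61, 8.11, 8.48 and 8.51, with no overlap, and Nsdhl fell by 0.69 (1.61-fold lower, SE 0.13, adjusted p = 9.2e-04). Ebp, the sterol isomerase, was at 8.33, 8.56 and 8.94 in Cre- and 8.15, 8.03, 8.29 and 8.28 in Cre+ kidneys at 7 months, and fell by 0.42 (1.34-fold lower, SE 0.14, adjusted p = 0.036). The groups were separated by 0.04, between 8.29 and 8.33. At 4 months Ebp was at -0.21 (SE 0.13, adjusted p = 0.47).

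The other 7 enzymes of this stretch did not pass at either age. Dhcr7, the reductase that completes one route to cholesterol, and Tm7sf2, a sterol reductase, had Cre+ values below all Cre- values at 7 months, at -0.32 (SE 0.12, adjusted p = 0.076) and -0.29 (SE 0.12, adjusted p = 0.098). Both passed in some alternatives: after median centring Dhcr7 was at -0.40 (adjusted p = 0.022) and Tm7sf2 at -0.37 (adjusted p = 0.024). Fdft1 (squalene synthase), Lss (lanosterol synthase) and Msmo1 (a methylsterol oxidase) stood within 0.11 of 0 at both ages, with SE of 0.15 to 0.18. Hsd17b7, a sterol ketoreductase, was at -0.03 and -0.21, and Sc5d, a sterol desaturase, at -0.01 and -0.18. Cyp51, the lanosterol demethylase, was not a member but belongs to the same stretch. It was at -0.27 at 4 months (SE 0.17, adjusted p = 0.47) and fell by 1.18 at 7 months (SE 0.18, adjusted p = 1.4e-04), with every Cre+ value below every Cre- value at each age.

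**Figure D2:**
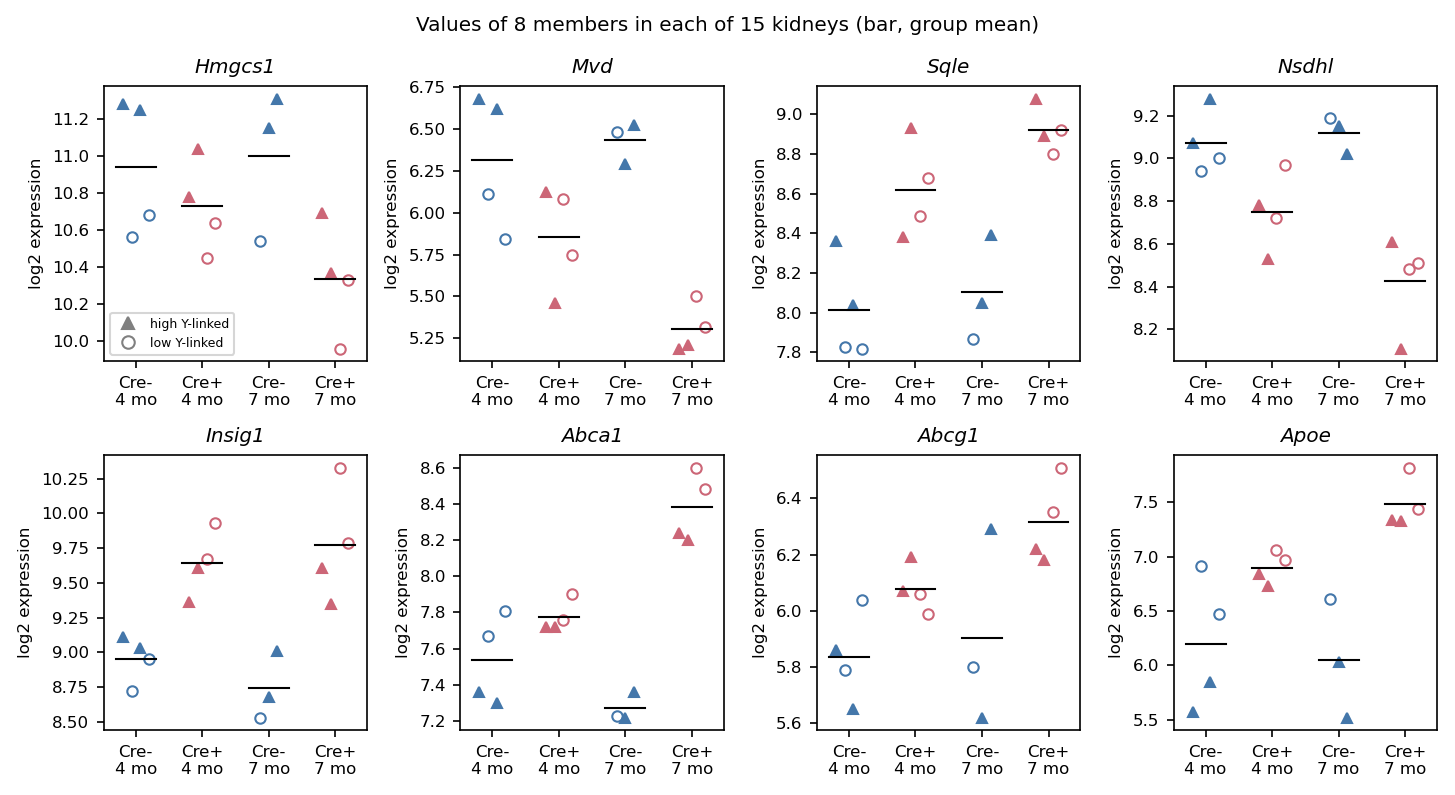
Log2 expression of 8 members in each of the 15 kidneys, by group, with a bar at the group mean; filled triangles are arrays with high Y-linked values and open circles arrays with low ones. At 7 months the Cre+ kidneys lie apart from the Cre- kidneys for Mvd, Sqle, Nsdhl, Insig1, Abca1 and Apoe, and the ranges overlap for Hmgcs1 and Abcg1.

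Among the 5 genes of SREBP control, the retention proteins moved and the transcription factors stayed within their error. Insig1, which anchors Scap in the endoplasmic reticulum and is itself an SREBP target, was at 9.11, 8.72, 9.03 and 8.95 in Cre- and 9.36, 9.61, 9.67 and 9.93 in Cre+ kidneys at 4 months. It rose 1.62-fold (0.69, SE 0.18, adjusted p = 0.040), and the groups did not overlap. At 7 months it was at 8.53, 8.68 and 9.01 against 9.61, 9.35, 10.33 and 9.79 and rose 2.04-fold (1.03, SE 0.19, adjusted p = 7.6e-04). Every Cre+ kidney of either age lay above all 7 Cre- kidneys.

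Insig2, the second anchor, was at 6.79, 6.61, 6.67 and 6.93 in Cre- kidneys at 4 months and 6.70, 6.40, 6.71 and 6.86 in Cre+ kidneys of that age (-0.08, SE 0.11, adjusted p = 0.77). At 7 months it was at 6.70, 6.62 and 6.67 against 7.11, 6.93, 7.06 and 7.11, and rose 1.31-fold (0.39, SE 0.12, adjusted p = 0.022). The difference between the Cre effects at the 2 ages was 0.47 (SE 0.16, adjusted p = 0.14) and did not pass, so the call at one age alone does not show that the ages differ. Scap, the escort of SREBPs, was at 8.33, 8.47 and 8.47 in Cre- and 8.11, 7.98, 8.19 and 8.07 in Cre+ kidneys at 7 months and fell by 0.33 (1.26-fold lower, SE 0.11, adjusted p = 0.037), after -0.17 (SE 0.10, adjusted p = 0.46) at 4 months. With its second, dimmer entry averaged in, Scap was at -0.22 at 7 months (adjusted p = 0.13). Srebf2, which encodes SREBP-2, was at -0.06 (SE 0.14, adjusted p = 0.88) and -0.15 (SE 0.15, adjusted p = 0.54), and Srebf1, which encodes SREBP-1, at 0.03 (SE 0.14, adjusted p = 0.95) and -0.01 (SE 0.15, adjusted p = 0.96). These transcript values do not measure the cleaved, active proteins.

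Of the 4 measured genes of sterol transfer and export, limma called 0 at 4 months (1 at an unadjusted p under 0.05, Apoe), and 3 rose at 7 months. Apoe passed at 4 months with Y-linked values as a covariate (0.69, adjusted p = 0.025) and without Cre- replicate 2 of that age (0.94, adjusted p = 0.033). Apoe, the apolipoprotein that carries exported cholesterol, was at 5.57, 6.91, 5.85 and 6.47 in Cre- kidneys at 4 months and 6.84, 6.73, 7.06 and 6.97 in Cre+ kidneys of that age (0.70, SE 0.25, adjusted p = 0.16). The Cre- kidneys were widely spread (SD 0.61) and the Cre+ kidneys were not (SD 0.14). At 7 months they were at 6.61, 6.03 and 5.52 against 7.34, 7.33, 7.82 and 7.44, with no overlap, and Apoe rose 2.70-fold (1.43, SE 0.27, adjusted p = 8.1e-04). This was the greatest log2 rise of the 24 members.

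Abca1, the transporter that hands cholesterol to lipid-poor apolipoproteins, was at 7.36, 7.67, 7.30 and 7.81 in Cre- kidneys at 4 months and 7.72, 7.72, 7.76 and 7.90 in Cre+ kidneys of that age (0.24, SE 0.12, adjusted p = 0.36). At 7 months the Cre- kidneys were at 7.23, 7.22 and 7.36 and the Cre+ kidneys at 8.24, 8.20, 8.60 and 8.48, which put every Cre+ kidney above all others of the series. Abca1 rose 2.16-fold (1.11, SE 0.13, adjusted p = 1.1e-05). Abcg1, a transporter that loads formed lipoproteins, was at 5.80, 5.62 and 6.29 in Cre- and 6.22, 6.18, 6.35 and 6.51 in Cre+ kidneys at 7 months, and rose 1.33-fold (0.41, SE 0.14, adjusted p = 0.045) with overlapping groups, after 0.24 (SE 0.13, adjusted p = 0.39) at 4 months. Stard4, a carrier of sterol between membranes and an SREBP-2 target, was at -0.26 at both ages (SE 0.13 and 0.14, adjusted p = 0.35 and 0.22). After median centring Stard4 was at -0.34 at 7 months and passed (adjusted p = 0.049), while Abcg1 was at 0.34 and did not (adjusted p = 0.070).

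The ages were compared directly. Abca1 was the 1 member of 24 whose Cre effect differed between 4 and 7 months (0.87 greater at 7 months, SE 0.18, adjusted p = 0.019), against 2.14% of all genes (0.960% upward, 1.18% downward), and 3 members against 15.9% of genes passed unadjusted. Without Cre- replicate 2 of 7 months this difference was 0.85 and missed the threshold (adjusted p = 0.056). Within Cre+ kidneys, Abca1 rose by 0.61 from 4 to 7 months (SE 0.12, adjusted p = 0.0044) and Insig2 by 0.39 (SE 0.11, adjusted p = 0.029), against 10.8% of all genes (4.12% rising, 6.71% falling). Both did so without overlap, as 3 members did upward (with Apoe) and 2 downward (Ebp and Dhcr7), against 16.8% of genes (5.79% upward, 11.0% downward). Unadjusted, 8 members passed against 26.0% of genes. Of all genes called here, 38.1% rose, but 54.5% after quantile normalization; for the difference of the Cre effects the upward share was 44.8% and 56.5%. The call of Insig2 was lost without Cre+ replicate 2 of 4 months or Cre+ replicate 1, 3 or 4 of 7 months, at 0.30 to 0.38 (adjusted p = 0.063 to 0.086). Mvd was at -0.55 (SE 0.18, adjusted p = 0.057) and passed in 9 of 24 alternatives, and Apoe was at 0.58 (SE 0.25, adjusted p = 0.15) with all 7-month values above all 4-month values. Within Cre- kidneys limma called 0 of 24 members between the ages, against 0.00451% of all genes, and 0 also at an unadjusted p under 0.05, against 2.71%. These comparisons share samples with the Cre comparisons.

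The calls differed in how far they rested on single arrays. At 7 months Mvd, Sqle, Nsdhl, Insig1, Abca1 and Apoe passed in all 24 alternatives and left-out arrays. The other 5 did not. At 7 months the call of Hmgcs1 was lost without Cre- replicate 2 or 3 or Cre+ replicate 2, 3 or 4 (-0.68 to -0.51), that of Ebp without Cre- replicate 2 or 3 or Cre+ replicate 1 or 2 (-0.45 to -0.26), and that of Scap without Cre- replicate 2 or 3 or Cre+ replicate 1, 2 or 4 (-0.34 to -0.30). That of Insig2 was lost without Cre- replicate 2 or Cre+ replicate 1 or 4 (0.37 in each case), and that of Abcg1 with any 1 of 11 arrays left out (0.27 to 0.45), all but Cre- replicates 3 and 4 of 4 months and, of 7 months, Cre- replicate 3 and Cre+ replicate 2. Quantile normalization put Hmgcs1 at -0.40 (adjusted p = 0.21). Of the 24 alternatives and left-out arrays, Abcg1 kept its call in 7, Hmgcs1 and Scap in 16 each, Ebp in 17 and Insig2 in 21. The call of Abcg1 was also lost under quantile normalization, median centring, the plain linear model, 2 groups alone, the replicate block and the Y-linked covariate. At 4 months Sqle lost its call without Cre- replicate 2, 3 or 4 or Cre+ replicate 2 or 4 (0.51 to 0.62), and Insig1 with any 1 of 9 arrays left out (0.59 to 0.74), these being every 4-month array but Cre+ replicate 1 and, of 7 months, Cre- replicate 2 and Cre+ replicate 4, although neither changed sign in any alternative.

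Arrays with high and with low Y-linked values differed for 3 members within Cre- kidneys, a comparison chosen after the values were seen, against 3.16% of all genes. Hmgcs1 was at 11.25 to 11.28 in the high and 10.56 to 10.68 in the low Cre- arrays at 4 months, and at 11.15 to 11.31 and 10.54 at 7 months. Over both ages it was 0.67 higher in the high arrays (SE 0.13, adjusted p = 0.011). Sc5d was 0.52 higher (SE 0.13, adjusted p = 0.043). Apoe was 0.91 lower (SE 0.16, adjusted p = 0.0040), at 5.52 to 6.03 in the 4 high and 6.47 to 6.91 in the 3 low Cre- arrays. The 2 ranges of Apoe did not overlap.

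In Cre+ kidneys the same differences were 0.38 for Hmgcs1 (SE 0.12, adjusted p = 0.12), 0.06 for Sc5d (SE 0.12, adjusted p = 0.82) and -0.26 for Apoe (SE 0.14, adjusted p = 0.35), and limma called 0 of 24 members (8 unadjusted), against 1.52% of all genes. The test of the difference between Cre- and Cre+ kidneys with limma called 0 members (8 unadjusted), against 0.582% of all genes, with Insig1 at -0.72 (SE 0.20, adjusted p = 0.13) and Apoe at 0.64 (SE 0.21, adjusted p = 0.17). The shares of 1.52% and 0.582% are at an adjusted p under 0.05. The share of all genes passing unadjusted was not counted for either test, so the unadjusted counts have no share to set them against. Among arrays with high values, Apoe rose by 1.08 at 4 months (SE 0.20, adjusted p = 0.0077) and Mvd fell by 0.86 (SE 0.20, adjusted p = 0.029), against 3.33% of all genes, while Insig1 was at 0.42 (SE 0.19, adjusted p = 0.30). Among arrays with low values, Insig1 rose by 0.97 (SE 0.19, adjusted p = 0.017), Apoe was at 0.32 (SE 0.20, adjusted p = 0.44) and Mvd at -0.06 (SE 0.20, adjusted p = 0.92), against 2.16%. Sqle, called at 4 months over all arrays, passed in neither kind, at 0.46 (SE 0.19, adjusted p = 0.23) among high and 0.77 (SE 0.19, adjusted p = 0.051) among low arrays. At 7 months 9 members passed among high arrays, against 17.5% of all genes, and 6 among low arrays, against 14.0%, where 1 Cre- kidney stood against 2 Cre+ kidneys and the spread came from the other groups. With 1 Cre- kidney, the low arrays of 7 months have no spread of their own in that group, so their calls are no support for the pooled ones.

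Promoter letters are shown for 4 members. Insig1 and Abca1, which rose, and Mvd, which fell, had changes among the largest that passed. Hmgcs1, which also fell, was picked because its window holds TCACCCCAC, not for the size of its change. The window of Apoe held none of the motifs searched. The letters come from RefSeq promoter windows of GRCm38.p6 (250 bases before to 50 after each start), which held 22 of the 27 listed genes. Each is printed 5′ to 3′ on the gene's strand, the 250 bases before the start. Insig1 lies at chr5:28071162-28071411 (+ strand) and Abca1 at chr4:53159896-53160145 (- strand), and capitals mark CACGTG, the E-box letters that MiT factors and SREBPs can bind. Hmgcs1 lies at chr13:119690101-119690350 (+ strand), and capitals mark TCACCCCAC, a sterol regulatory element. Mvd lies at chr8:122443423-122443672 (- strand), and capitals mark CCAAT on either strand, the box of the factor NF-Y that works beside SREBPs.
Insig1: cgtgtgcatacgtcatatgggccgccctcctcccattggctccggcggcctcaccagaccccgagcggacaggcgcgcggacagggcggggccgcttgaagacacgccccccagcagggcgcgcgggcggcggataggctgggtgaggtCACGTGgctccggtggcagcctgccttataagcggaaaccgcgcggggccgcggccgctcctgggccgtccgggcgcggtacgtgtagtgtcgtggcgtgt
Abca1: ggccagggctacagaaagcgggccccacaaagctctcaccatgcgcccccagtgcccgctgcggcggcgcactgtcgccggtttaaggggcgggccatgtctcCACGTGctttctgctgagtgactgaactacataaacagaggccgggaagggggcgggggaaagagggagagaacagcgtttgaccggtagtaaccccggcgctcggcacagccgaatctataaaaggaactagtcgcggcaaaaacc
Hmgcs1: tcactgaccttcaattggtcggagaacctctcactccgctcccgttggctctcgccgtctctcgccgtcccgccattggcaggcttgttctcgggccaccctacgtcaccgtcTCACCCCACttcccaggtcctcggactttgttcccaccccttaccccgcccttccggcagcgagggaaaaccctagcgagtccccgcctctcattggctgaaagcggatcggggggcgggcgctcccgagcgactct
Mvd: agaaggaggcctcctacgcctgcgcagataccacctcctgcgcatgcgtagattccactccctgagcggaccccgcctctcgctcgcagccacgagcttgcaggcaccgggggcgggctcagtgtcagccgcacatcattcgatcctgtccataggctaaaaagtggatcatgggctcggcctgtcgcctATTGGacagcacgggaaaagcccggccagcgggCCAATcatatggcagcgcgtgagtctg

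Counted on both strands over the whole window, CACGTG was found in 6 of these 22 genes: Abca1, Dhcr7, Hsd17b7, Insig1, Sc5d and Scap. Several genes have more than 1 window, and counted by window it was in 7 of the members' 32 and in 7.15% of all 32851. It begins 101 bases before the start in Insig1 and 147 in Abca1. The longer palindrome TCACGTGA, which contains CACGTG and is typical of lysosomal MiT targets, was in 0 of 22 genes and 0.974% of all windows, and the M-box TCATGTG in 0 and 3.77%. TCACCCCAC was in Hmgcs1 alone, 137 bases before the start, and in 0.551% of all windows, and the looser TCACNCCAC, which contains it, was in the same gene and 1.24% of all windows. CCAAT was in 18 of 22 genes, which is 19 of the members' 32 windows, and in 37.4% of all windows. Of the 6 genes with CACGTG, 2 rose at 7 months (Abca1 and Insig1), 1 fell (Scap) and 3 did not pass (Dhcr7, Hsd17b7 and Sc5d). A match is a description of letters, not of binding.

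Genes around the pathway were taken from lists, and at 7 months most lists held genes that moved each way. At that age 11.7% of all genes rose and 10.8% fell with limma, so movement each way is not particular to these lists. At 4 months 2.73% of all genes rose and 0.803% fell, and 16.3% passed at an unadjusted p under 0.05. Of 7 measured genes of SREBP processing and sterol-regulated degradation, 2 rose and 1 fell at 7 months: the SREBP proteases Mbtps2 (0.55, SE 0.17, adjusted p = 0.023) and Mbtps1 (0.31, SE 0.10, adjusted p = 0.043) rose, and Erlin1, which helps remove HMG-CoA reductase, fell by 0.67 (SE 0.13, adjusted p = 0.0011). At 4 months limma called 0 of the 7 (1 at an unadjusted p under 0.05). In the isoprenoid branch, which draws farnesyl diphosphate away from sterols, 1 of 11 fell at 4 months. This was Nus1, a subunit of the dolichol-making enzyme, at -0.58 (SE 0.09, adjusted p = 9.7e-04) and then -1.12 at 7 months (SE 0.10, adjusted p = 4.1e-07). At 7 months Rabggta, a prenyltransferase subunit, also fell (-0.61, SE 0.17, adjusted p = 0.015), while its partner subunit Rabggtb rose by 0.93 (SE 0.21, adjusted p = 0.0034) and Pggt1b, a related subunit, by 0.39 (SE 0.11, adjusted p = 0.016).

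Lipoprotein uptake had 8 measured genes, with 1 rising and 1 falling at 4 months and 2 rising and 4 falling at 7 months. Scarb1, the receptor for high-density lipoprotein, rose by 0.72 (SE 0.14, adjusted p = 0.0079) and then, at 7 months, stood 0.65 higher (SE 0.16, adjusted p = 0.0052). Vldlr, a lipoprotein receptor, was lower at both ages, by a log2 change of -0.53 (SE 0.10, adjusted p = 0.0060) in the younger Cre+ kidneys, and in the older ones -0.96 (SE 0.11, adjusted p = 7.0e-06). At 7 months Lrp1, a scavenging receptor, rose by 0.84 (SE 0.13), and Cd36, a fatty acid and lipoprotein receptor, and Lpl, the lipase of the vessel wall, fell by 1.59 (SE 0.41) and 1.30 (SE 0.20).

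Among 17 measured genes of the LXR and efflux list, Pltp, a phospholipid transfer protein, rose at both ages, by 0.61 at 4 months (SE 0.14, adjusted p = 0.021) and 1.18 at 7 months (SE 0.15, adjusted p = 2.2e-05). At 7 months 2 rose and 4 fell. Clu, an apolipoprotein made by injured tubules, rose by 0.83 (SE 0.21), while the lipid transporter Abca3 fell by 0.71 (SE 0.12), the LXR partner Rxra by 0.54 (SE 0.15) and Nr1h3, which encodes LXR-alpha, by 0.50 (SE 0.13, adjusted p = 0.0088).

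Lysosomal and membrane cholesterol transfer had 17 measured genes. At 4 months limma called 0 (5 at an unadjusted p under 0.05), and at 7 months 4 rose and 5 fell. Gramd1a, a carrier of sterol from the plasma membrane, rose by 0.93 (SE 0.12), Scarb2, a lysosomal membrane protein, by 0.87 (SE 0.11), and Osbpl1a, an oxysterol-binding protein relative, by 0.61 (SE 0.11). Lipa, the lysosomal acid lipase that frees cholesterol from esters, fell by 1.14 (SE 0.12, adjusted p = 2.2e-06), Stard5, a sterol carrier, by 0.66 (SE 0.11) and Osbpl9 by 0.64 (SE 0.19). Of 11 genes of oxysterols and esters, 2 rose at 4 months and 4 rose and 3 fell at 7 months. Ch25h, which makes an oxysterol, rose by 1.38 at 7 months (SE 0.27). Cyp39a1, an oxysterol hydroxylase, rose by 0.62 (SE 0.16) and 1.11 (SE 0.17), and Plin3, a lipid droplet coat protein, by 0.61 (SE 0.15) and 1.10 (SE 0.16). Ces1d, a carboxylesterase, fell by 1.61 at 7 months (SE 0.16), Cyp27a1, another oxysterol enzyme, by 0.82 (SE 0.20) and Nceh1, an ester hydrolase, by 0.49 (SE 0.16).

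Of 16 measured fatty acid genes that SREBP-1 drives, 1 rose at both ages and 5 fell at 7 months. Acacb, an acetyl-CoA carboxylase, rose by 0.76 at 4 months (SE 0.13, adjusted p = 0.0030) and 0.91 at 7 months (SE 0.15, adjusted p = 1.9e-04). Acss2, which makes acetyl-CoA from acetate, fell by 1.10 (SE 0.21, adjusted p = 8.5e-04), Me1, a source of NADPH, by 0.89 (SE 0.24) and Fads2, a fatty acid desaturase, by 0.87 (SE 0.13).

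**Figure D3:**
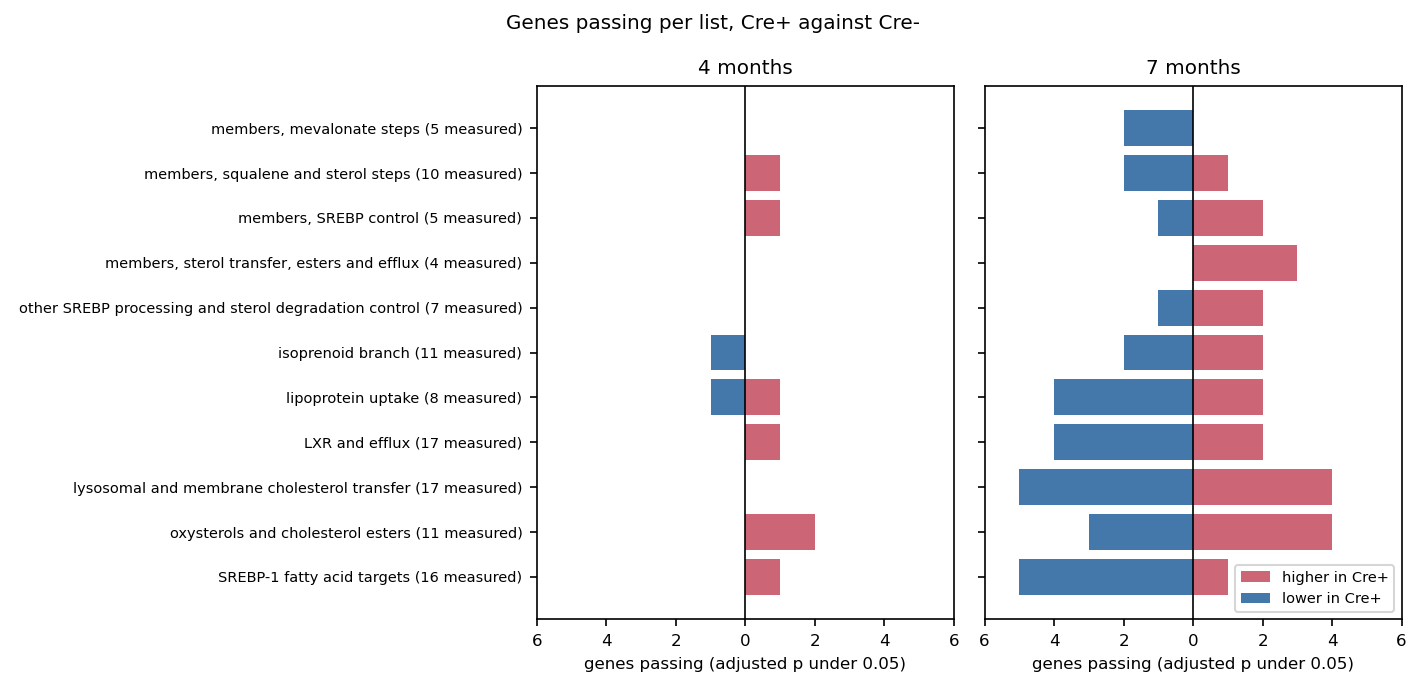
Number of genes past the test in each list in Cre+ against Cre- kidneys at 4 and 7 months, higher to the right of 0 and lower to the left, with the number measured in parentheses. Members of the mevalonate steps changed downward (2 at 7 months) and those of transfer and efflux upward (3 at 7 months), and most other lists have bars on both sides at 7 months. Of all genes, 11.7% rose and 10.8% fell at 7 months.

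Markers of several cell types moved in the same kidneys, where 3.53% of all genes changed at 4 months and 22.5% at 7 months. In a whole-organ sample, fewer cells of a type and less RNA per cell cannot be told apart. Macrophage markers rose in 4 of 14 genes at 4 months and 12 of 14 at 7 months, with none falling, and their mean was 5.62 to 6.06 in Cre- and 7.10 to 7.31 in Cre+ kidneys at 7 months, beside the rises of Apoe, Abca1 and Abcg1. Proximal tubule markers fell in 3 of 14 genes at 4 months and 13 of 14 at 7 months, with means of 11.09 to 11.14 in Cre- and 9.55 to 10.13 in Cre+ kidneys at 7 months, beside the falls of Mvd, Hmgcs1, Nsdhl and Ebp. The tubule list shares Lrp2 with the list of lipoprotein uptake, where that gene fell. At 7 months lymphocyte markers rose in 6 of 8 genes with none falling (median log2 change 1.29), and their mean was 4.21 to 4.35 in Cre- and 5.09 to 5.80 in Cre+ kidneys. Fibroblast markers rose in 5 of 9 genes (median 1.05). Collecting duct markers rose in 2 of 8, but 5 of the 8 lay below 0 and their median was -0.07. Thick ascending limb markers fell in 4 of 8 genes (median -0.61) and endothelial markers in 2 of 7 (median -0.28). Adipocyte markers fell in 1 of 5 (Lep, 3.44 in Cre+ against 4.25 in Cre-) and adrenal cortex markers in 1 of 7 (Mc2r, 2.61 against 3.08). Both genes lay below 5.0, the median of all genes, and the adrenal list had a median change of 0.03. Counts for collecting duct, endothelial, adipocyte and adrenal markers rested on 1 or 2 genes per list, where 11.7% of all genes rose and 10.8% fell. They are not read as shifts of cell types. The part of these shifts in the members' values was not tested.

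**Figure D4:**
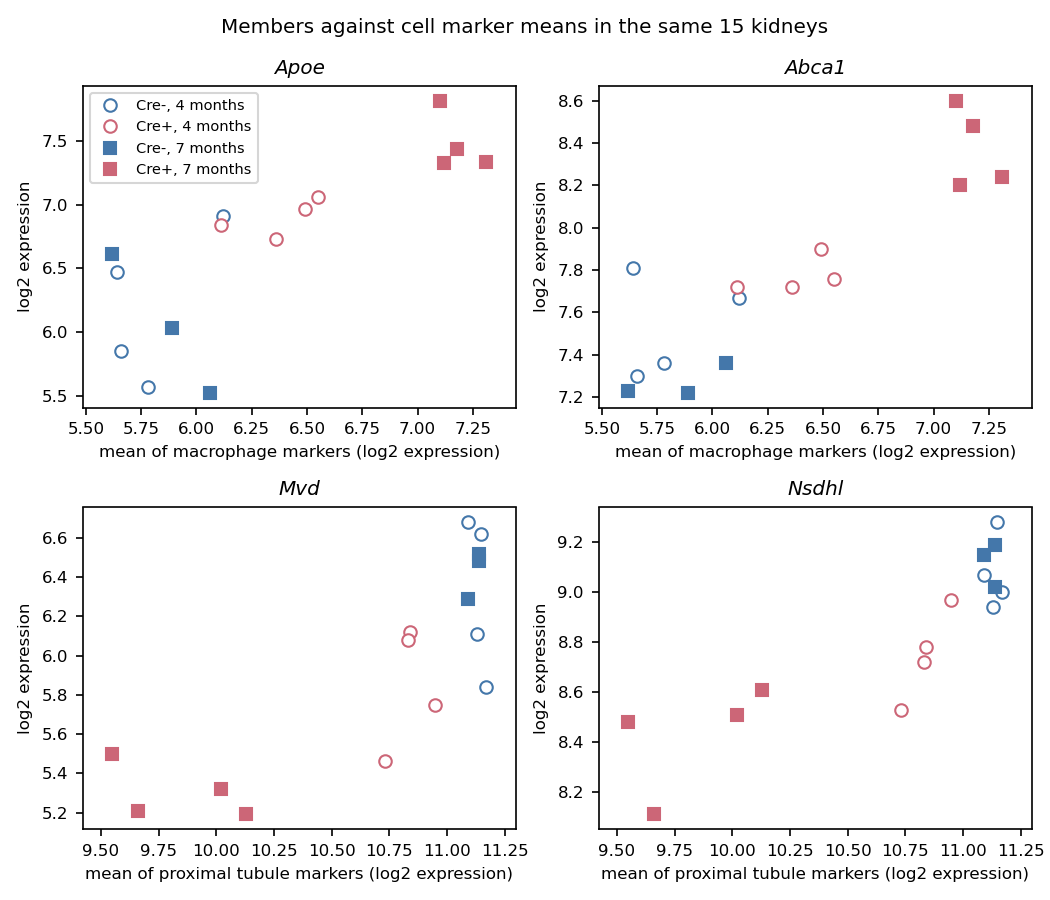
Log2 expression of Apoe and Abca1 against the mean of 14 macrophage markers, and of Mvd and Nsdhl against the mean of 14 proximal tubule markers, in the 15 kidneys; blue is Cre-, red Cre+, open circles 4 months and filled squares 7 months. At 7 months the Cre+ kidneys lie apart from the Cre- kidneys on both axes in every panel, with macrophage means of 7.10 to 7.31 and proximal tubule means of 9.55 to 10.13.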

How the data were processed

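Kidney RNA of each mouse was read on its own Mouse Gene 2.0 ST array, per the labels' protocols. The authors made the deposited log2 values with Partek 6.6 and RMA, per the submitters' processing notes. Scanner files were not used here, so background correction and slide could not be varied.

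Of 41345 entries, 23521 had 1 gene symbol, 1814 several and 16010 none, and 23328 of the first were matched by Entrez identifier to RefSeq (GRCm38.p6). The entry of highest mean stood for each of 22180 genes. Groups came from the titles. Limma 3.58.1 in R 4.3.3 fitted 4 group means to all 15 arrays, and 5 two-sided contrasts were adjusted (Benjamini-Hochberg) over all genes at 0.05. Errors are standard errors of that fit. The procedure was tested on simulated data. Each array is a different animal, and precision is limited by how many there are. Figures and tables used Python 3.11.15, pandas 2.3.3, numpy 2.4.6 and matplotlib 3.10.9.

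Members and lists were chosen with earlier results of these data known. All members could be named, and of each other list up to 3 rising and 3 falling genes per Cre comparison. Alternatives were quantile normalization, median centring, a filter on dim genes, a variance trend with robust fitting, an unmoderated linear model, 2 groups alone, the replicate block, Y-linked values as a covariate, averaging all entries of a gene, promoter windows without the bases after the start, and each array left out. Fits within arrays of high or low Y-linked values were added later.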

Additional observations from a re-analysis of the deposited data

Results flagged for a closer look

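Abca1 stood out because its Cre effect differed between the ages, being 0.87 greater at 7 months on the log2 scale (SE 0.18, adjusted p = 0.019 with limma). Its Cre- mean was 7.54 at 4 months and 7.27 at 7 months, and its Cre+ mean 7.77 and 8.38.

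Msmo1 stood out for 1 sample far from the others. Cre+ replicate 2 of 7 months was at 5.93 while the other 3 Cre+ kidneys of that age were at 6.35 to 6.42. It was the 1 flag in 72 groups of 4 arrays, fewer than the 1 in 20 that chance gives.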

How the results depend on the processing

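The count of members called at 4 months was 2 and became 1 after median centring, 0 with the plain linear model (6 at an unadjusted p under 0.05), 1 with the 2 groups fitted alone, 1 with the replicate block and 1 within arrays of low Y-linked values, and rose to 3 with the Y-linked covariate (Apoe added), and ran from 0 to 3 with 1 array left out (0 without Cre- replicate 3 or 4 or Cre+ replicate 2 or 4, 3 without Cre+ replicate 1, 1 without Cre- replicate 1 or 2, Cre+ replicate 3, 7-month Cre- replicate 2 or 7-month Cre+ replicate 4). The count of 11 at 7 months (6 higher, 5 lower) became 13 after median centring (5 higher, 8 lower), 12 with the filter on dim genes, 10 with the mean of a gene's entries, 8 with the plain linear model, 8 with the 2 groups alone, 7 with the replicate block and 6 within arrays of low Y-linked values, and ran from 6 to 11 with 1 array left out (6 without Cre- replicate 2, 7 without Cre+ replicate 1 or 4). The single limma call for the difference between ages became 0 with the replicate block (3 unadjusted) and 0 within arrays of high Y-linked values (2 unadjusted), and ran from 0 to 1. The 2 calls between ages in Cre+ kidneys became 4 after quantile normalization and 5 with the Y-linked covariate, and ran from 1 to 3 (1 without 7-month Cre+ replicate 1, 3 or 4). The cause was not tested. Calls among all genes at 7 months also moved with median centring, from 2597 higher and 2394 lower to 2337 and 3609. No such count was made for left-out arrays or changes of model. Deviations of same-numbered Cre+ and Cre- arrays correlated at -0.28 to 0.22. The positive values came from pairs of the same Y-linked kind and the negative ones from pairs of unlike kind. The check thus follows that split and cannot decide whether the numbers mark pairs. Of 2280 member values under these alternatives, without the split by Y-linked values, 0 called values changed sign, and 83 that passed in neither fit did. In Cre- kidneys the count between ages was 0 in every setting, and 0 to 1 unadjusted. Background correction and slide were not varied. Arrays give no depth, and signal over background was not analysed here.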
